A study of Mus musculus with 2 samples.

Results

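Albumin, alpha-fetoprotein and 8 other genes for proteins that the liver secretes into plasma were compared between untreated and peroxide-induced senescent AML12 hepatocytes. The 10 genes (Alb, Afp, Ttr, Rbp4, Ambp, Ahsg, Fga, Fgb, Fgg and Serpinc1) were listed by name as products of the liver, with no threshold on their values. All 10 were found by Ensembl identifier among the 35275 genes of the count table, and 9 of them were among the 14383 genes with at least 10 reads over both libraries. Alb, Ttr, Rbp4 and Ambp had over 1000 reads each. The other 6 genes had fewer than 200 reads each, and 5 of these (all but Afp) had fewer than 50, which is too few for a precise ratio.

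AML12 is an immortal mouse line set up from hepatocytes of a mouse that carries a human TGF-alpha transgene, and the labels give CD-1 as the strain, liver as the tissue, male as the sex and 3 months as the age. The control cells were untreated and the senescent cells had met hydrogen peroxide daily for 6 days (1 h each, then 23 h of recovery), first at 1 mM and from then on at 750 µM. Both conditions share the line and its transgene. RNA of 3 samples was pooled into 1 library per condition, so every ratio compares 2 libraries, no spread between cultures was measured, and no p-value can be given. Intervals are at the 95% level and cover counting error only. They are exact for 1 gene or share and by a normal approximation for a difference between 2 genes. Reads amplified by PCR without molecular identifiers are not independent molecules, so the intervals may be too narrow even for counting error. In bulk RNA, fewer cells that express a gene and less of its RNA per cell cannot be told apart.

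Hepatocytes make most of the proteins of blood plasma. Albumin is the main one and carries fatty acids, hormones and drugs, and alpha-fetoprotein is its close relative in the fetal liver, silenced after birth. Their genes and many others of this kind are read in hepatocytes under a shared set of liver-enriched transcription factors, among them the HNF4, FOXA and C/EBP proteins.

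The libraries held 28021941 (control) and 25738075 (senescent) counted reads, on 17403 and 17592 genes. Libraries were scaled with TMM factors (1.04 and 0.964). Higher or lower in the senescent library is used below of genes with at least 10 reads, a log2 ratio past 1.5 in size and an interval that leaves out 0, and any other gene is given by its value. By that rule 2.71% of the 14383 genes were higher and 5.60% were lower. Of the 9 plasma protein genes that could be counted, 2 were higher (Fga and Serpinc1) and 1 was lower (Alb), and their median log2 ratio was 0.02, beside -0.01 over all genes. Alb was the most read of the 9 in control cells, and Fga and Serpinc1 were among the least read. With 8 and 3 control reads, Fga and Serpinc1 met the 10-read minimum only through the senescent library. They had little room to be counted as lower.

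Alb had the largest difference of the 4 abundant genes. Its gene (ENSMUSG00000029368) had 32076 control reads against 2917 in senescent cells. After scaling, it stood at 1103 CPM (reads scaled to a common library total) in the control and 118 CPM in the senescent cells, and the log2 ratio was -3.23 (-3.28 to -3.18), or 9.38-fold lower. Of the 430 genes with at least 10000 control reads, 1 had a log2 ratio below that of Alb. Over all 14383 genes, 108 had a ratio at or below it, Alb included.

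Ttr, Rbp4 and Ambp also had fewer scaled reads in the senescent library, each by less than the threshold. Ttr encodes transthyretin, which carries thyroxine and holds the retinol-binding protein RBP4 in the circulation. It had 23146 control against 10486 senescent reads, with a log2 ratio of -0.91 (-0.95 to -0.88). Rbp4, the carrier of retinol, had 6479 and 3391 reads and a log2 ratio of -0.70 (-0.77 to -0.64). Ambp, whose precursor protein is cut into alpha-1-microglobulin and the protease inhibitor bikunin, had 11259 and 8207 reads and a log2 ratio of -0.23 (-0.27 to -0.19), the smallest of the abundant genes. Among all 7804 genes with at least 1000 reads, 1.70% were counted as lower, and of these 4 genes Alb was.

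**Figure D1:**
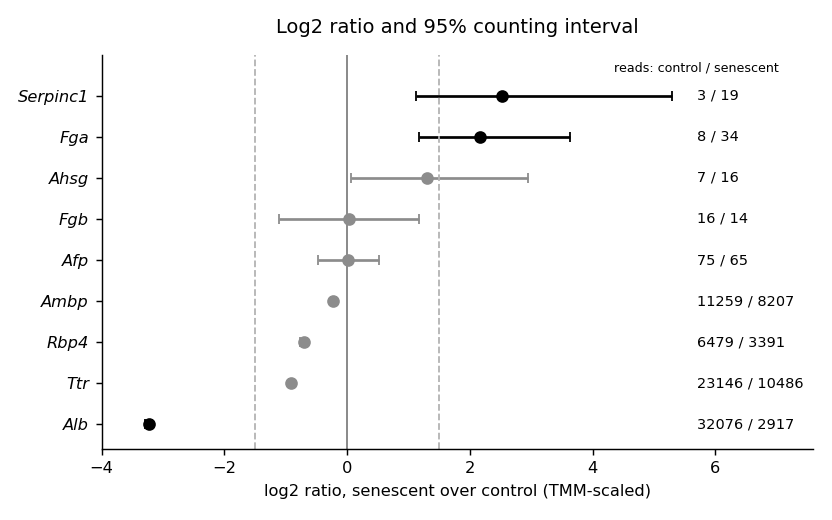
Log2 ratio of senescent over control after TMM scaling for the plasma protein genes with at least 10 reads, with 95% counting intervals as bars, dashed lines at the threshold of 1.5, black points for genes past it by the rule, grey points for the others, and reads of both libraries at the right. Alb sits at -3.23, Ttr, Rbp4 and Ambp lie between 0 and -1, and the low-read genes have wide intervals.

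Because Alb differed more than its partners, the make-up of the plasma protein transcripts differed between libraries. The 10 genes took 0.261% of all counted control reads but 0.0977% of the senescent ones (exact binomial intervals 0.259% to 0.263% and 0.0965% to 0.0990%). Without Alb the shares were 0.146% and 0.0864%. Alb made up 43.9% of the reads of the 10 genes in control cells and 11.6% in senescent cells. Ttr went from 31.7% to 41.7%, and Ambp from 15.4% to 32.6% of those reads. Alb, Ttr, Rbp4 and Ambp together made up 99.9% and 99.4% of them, so the other 6 genes barely enter these shares.

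Comparisons within a library do not depend on scaling. The log2 ratio of Alb was lower than that of Ttr by a difference of -2.32 (-2.38 to -2.25). Against Rbp4 the difference was -2.53 (-2.61 to -2.44), and against Ambp it was -3.00 (-3.07 to -2.93). Ttr and Rbp4, whose proteins travel together in plasma, lay closer, with a difference of -0.21 (-0.28 to -0.14).

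Expressed as a level per kilobase of exon, scaled alike over all genes, the order of levels changed as well. In control cells Ttr was highest at 2199, ahead of Alb at 1543, Ambp at 901 and Rbp4 at 544, and their counting intervals did not overlap. In senescent cells the order was Ttr (1119), Ambp (737), Rbp4 (320) and Alb (158), again without overlap. Alb thus moved from rank 72 to rank 1067 among 34490 genes with a symbol, while Ambp went from rank 152 to rank 175.

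Afp and the fibrinogen chains were low in both libraries. The control level of Afp was 2.51 (1.97 to 3.15), above that of Fgb (0.473), Ahsg (0.359) and Fga (0.300), whose intervals overlapped one another. Serpinc1 was at 0.0396 and Fgg had no read. In the senescent library Afp (2.44) and Fga (1.43, 0.990 to 2.0) overlapped at their interval ends, and Fga was the highest of the other low genes. Below it came Ahsg (0.922), Fgg (0.484), Fgb (0.465) and Serpinc1 (0.282), and the intervals of each neighbouring pair in this order overlapped, that of Fga and Ahsg included.

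**Figure D2:**
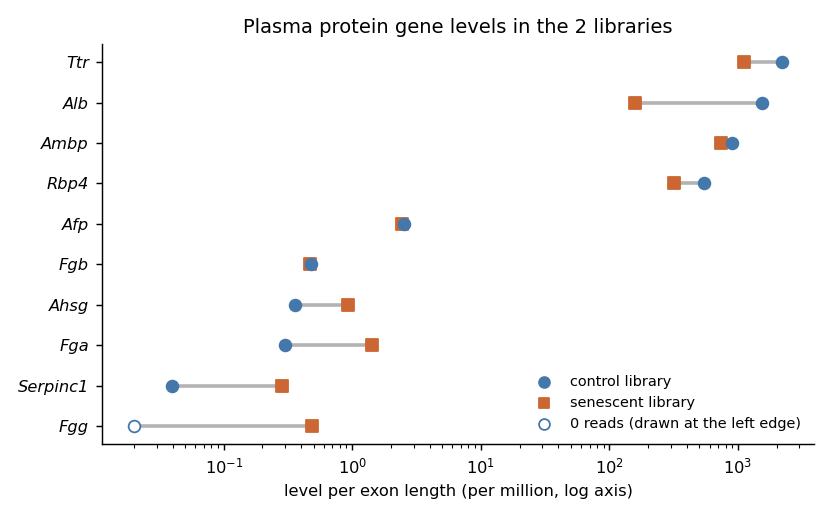
Levels of the 10 genes per kilobase of exon, scaled to the same total in each library, on a log axis, with circles for the control library, squares for the senescent library and a line joining the pair. Alb, Ttr, Ambp and Rbp4 lie above 100 in both libraries and the other 6 lie below 5, and the open circle of Fgg stands for 0 control reads and is drawn at the left edge.

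The albumin gene family holds Alb, Afp, Afm and Gc on mouse chromosome 5 (build GRCm38). Alb (90460897-90476602), Afp (90490737-90508907) and Afm (90518932-90553543) stand in a row on the plus strand, and Gc (89417522-89457898, minus strand) ends 1003 kb from the start of Alb. Promoter sequence is shown because the members of this family differed in ratio while sharing a motif: all 4 promoters hold GTTAATNAT on the plus strand of the gene. The bases upstream of the transcription start are from RefSeq (build GRCm38.p6), written 5′ to 3′ on the strand of the gene, and capitals mark the match. They lie at chr5:90460720-90460869 (+) for Alb, chr5:90490564-90490713 (+) for Afp, chr5:90518799-90518931 (+) for Afm and chr5:89457899-89458048 (-) for Gc.
Alb: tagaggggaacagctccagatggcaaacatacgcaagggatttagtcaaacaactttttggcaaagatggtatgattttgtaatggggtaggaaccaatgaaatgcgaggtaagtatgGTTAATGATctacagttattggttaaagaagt
Afp: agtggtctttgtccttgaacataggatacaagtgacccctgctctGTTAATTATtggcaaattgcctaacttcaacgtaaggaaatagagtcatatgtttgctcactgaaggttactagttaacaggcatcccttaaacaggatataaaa
Afm: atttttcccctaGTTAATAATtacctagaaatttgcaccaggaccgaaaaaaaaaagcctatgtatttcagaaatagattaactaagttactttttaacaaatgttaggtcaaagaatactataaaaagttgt
Gc: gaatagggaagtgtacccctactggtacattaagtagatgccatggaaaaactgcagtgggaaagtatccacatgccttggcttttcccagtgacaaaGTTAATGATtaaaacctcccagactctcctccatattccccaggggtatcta

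Counted from the RefSeq start, the match begins at -32 in Alb, -105 in Afp, -138 in Afm and -52 in Gc. The printed Afm stretch stops at the GENCODE start, which lies upstream of the RefSeq start. Counted from the GENCODE start, the match begins at -59 in Alb, -128 in Afp, -121 in Afm and -52 in Gc. In 300-base windows searched on both strands, GTTAATNAT occurred in 0.801% of 32851 RefSeq promoters, and in 3 of the 9 plasma protein genes with an entry (Alb, Afp and Fga). A gene was counted if any of its promoters matched, whereas the share of all is per promoter. Rbp4 has more than 1 promoter, and its matches lie in different ones. The C/EBP motif TTGCNNAA occurred in 7 of the 9 and in 10.8% of all promoters. CCAAT occurred in 5 of the 9 (37.4% of all), TATAAA in 2 (13.6%), the FOXA motif TGTTTAC in 1, Rbp4 (3.65%), and the HNF4 motif CAAAGTCCA in 0 (0.475%). In Afp a CCAAT match on the other strand overlaps the GTTAATNAT match, and the GTTAATNAT match in Fga is on the minus strand. RefSeq and GENCODE starts differ, and some counted matches lie past the GENCODE start: that of GTTAATNAT in Fga, those of TTGCNNAA in Ahsg, Rbp4 and Serpinc1, those of CCAAT in Ambp and Ahsg, and that of TATAAA in Rbp4. These are matches of letters and not measured binding sites.

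The 4 family genes, with a like motif, were not alike in ratio. Afm, which encodes the vitamin E carrier afamin, had 718 and 93 reads and a log2 ratio of -2.71 (-3.05 to -2.41). Gc, the vitamin D carrier, had 28593 and 10865 reads and a log2 ratio of -1.17 (-1.20 to -1.13). Afp had 75 and 65 reads and a log2 ratio of 0.02 (-0.48 to 0.52). Thus Alb and Afm were counted as lower, and Afp, which lies between them, had nearly the same scaled reads in both libraries.

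The differences of Alb from the other family genes had counting intervals that left out 0. The log2 ratio of Alb was below that of Afp by a difference of -3.25 (-3.74 to -2.77) and below that of Gc by -2.06 (-2.13 to -2.0). Against Afm the difference was smaller, -0.51 (-0.83 to -0.19). The ratio of Alb to Afp reads was 428 in control and 44.9 in senescent cells, which reflects the Alb reads, since the Afp reads hardly differed. Genes beside the cluster differed among themselves, and none was higher or lower by the rule. On the side of Alb, Gm9958 had 43 and 19 reads (-0.92, -1.81 to -0.14) and Ankrd17 was at 0.42 (0.37 to 0.47). On the side of Afm, 5830473C10Rik had 28 and 9 reads (-1.32, -2.68 to -0.28) and Rassf6 was at 0.97 (0.81 to 1.15).

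**Figure D3:**
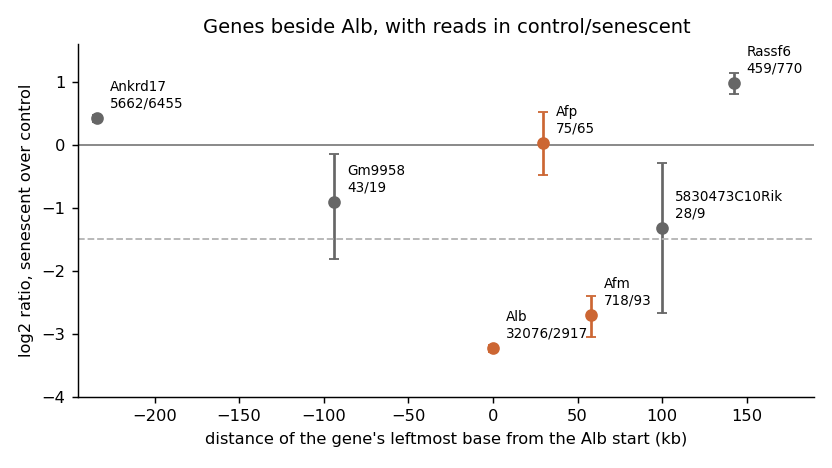
Log2 ratio of senescent over control for genes around Alb on chromosome 5, plotted by distance in kb from the start of Alb, with 95% counting intervals as bars, orange for the albumin family, reads in control/senescent beside each gene and a dashed line at -1.5. Alb (-3.23) and Afm (-2.71) are low, Afp between them is at 0.02 and Ankrd17 upstream is at 0.42.

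Genes known to be expressed with Afp in the fetal liver, or to act on it, were compared next. Of 10 fetal and oncofetal genes 6 had enough reads, 0 were higher or lower, and their median was 0.69. Over all genes 2.71% were higher and 5.60% lower. The median rests in part on genes with few reads, H19 (4 and 6 reads, 0.68, -1.26 to 3.08) and Igf2 (3 and 9, 1.51, -0.19 to 4.34). Cd24a, a surface protein and the most read of them, had 27171 and 19186 reads (-0.27, -0.30 to -0.25). Igf2bp3, an RNA-binding protein of fetal tissue, was at 0.70 (0.57 to 0.83) and Igf2bp1 was at 0.11 (0.01 to 0.22). Zhx2 and Zbtb20, known repressors of Afp after birth, were at -0.18 (-0.38 to 0.01) and 0.01 (-0.08 to 0.10), and the related Zhx3 had 824 and 119 reads and was counted as lower (-2.55, -2.85 to -2.28).

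Genes that take up or recycle albumin were read as well. Fcgrt, the heavy chain of the receptor that returns albumin to the blood, had 389 and 58 reads, with a log2 ratio of -2.50 (-2.94 to -2.12). Sparc, an albumin-binding glycoprotein of the matrix, was lower too (6357 and 1712 reads, -1.66, -1.74 to -1.59). B2m, the light chain that pairs with the Fcgrt product, was at -0.19 (-0.23 to -0.15). Of 6 counted genes in this list 2 were lower and 0 higher, where 5.60% of all genes were lower and 2.71% higher.

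Beside Alb, Ttr and Rbp4, other carriers of hormones, vitamins and metals were read. Of 7 with enough reads 5 were lower (Hp, Afm, Igfals, Cp and Hpx), 0 were higher, with a median of -1.62, where 5.60% of all genes were lower. Hp, which binds free hemoglobin, had 2886 and 88 reads, with a log2 ratio of -4.79 (-5.13 to -4.50). Cp, the copper protein ceruloplasmin, was at -1.62 (-1.65 to -1.59) and Hpx, which binds heme, at -1.57 (-1.63 to -1.52). Trf, the mouse gene for transferrin, had 26 and 17 reads and a ratio of -0.37 (-1.36 to 0.55).

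Beside Rbp4, the genes of retinol handling split: 1 of 10 was higher, 1 lower, with a median of -0.39. The shares over all genes were 2.71% higher and 5.60% lower. Rdh10, which oxidizes retinol to retinal, had 1039 and 7424 reads (3.07, 2.97 to 3.16). Dhrs3, which reduces retinal back to retinol, had 1507 and 332 (-1.95, -2.13 to -1.78). Aldh1a1, which makes retinoic acid, was at -0.46 (-0.49 to -0.43). Beside Ambp, Itih2, a heavy chain linked to bikunin, had 5673 and 2080 reads and a log2 ratio of -1.22 (-1.29 to -1.15), and the log2 ratio of Ambp exceeded it by 0.99 (0.91 to 1.08).

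The coagulation and fibrinogen genes had few reads. The 3 fibrinogen genes stand side by side on chromosome 3, Fgg at 83007724-83015049, Fga at 83026076-83033627 and Fgb at 83040141-83049863. Fga, the alpha chain of fibrinogen, had 8 control against 34 senescent reads, with a log2 ratio of 2.17 (1.18 to 3.64), and was higher. Fgb, the beta chain, had 16 and 14 reads (0.04, -1.11 to 1.17). Fgg, the gamma chain, had 0 and 8 reads, under the 10-read minimum, and against a floor of 3 reads it was 3.13-fold higher. Counting limits were 0 to 3.69 control and 3.45 to 15.8 senescent reads, so that fold is not a lower limit. The 3 chains together had 24 control and 56 senescent reads. Fibrinogen is built from all 3 chains, and the log2 ratio of Fga exceeded that of Fgb by 2.28 (0.76 to 3.80).

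Serpinc1, which encodes antithrombin, had 3 control against 19 senescent reads, with a log2 ratio of 2.52 (1.13 to 5.29), and was counted as higher. Of its 8546 exon bases, 2942 overlap exons of other genes, among them Zbtb37 on the opposite strand (235 and 308 reads), and the use of strand in counting is not known. Its reads therefore cannot be assigned to it with certainty. Ahsg, or fetuin-A, which binds calcium phosphate, had 7 and 16 reads (1.30, 0.06 to 2.95) and did not pass the threshold. Fetub, its neighbour, had 14 reads in each library, and Hrg (0 and 4), Kng1 (3 and 4) and Kng2 (4 and 2) of the same cluster had under 10.

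The share of low-read genes counted as higher was larger than among all genes: 8.06% of the 3102 genes with 10 to 100 reads. Fga and Serpinc1 are 2 of the 4 plasma protein genes in that range, with Fgb and Ahsg. Genes of the adult liver, a list added after the data were seen, were read beside them. Of these 28 genes 22 had more scaled reads in the senescent library and 5 had fewer, while their summed reads went from 831 to 405. Of the 13 with at least 10 reads, 8 were higher and 3 lower. Cyp2e1, a cytochrome P450 of the mature hepatocyte, had 0 and 50 reads, 19.5-fold higher against the floor of 3 reads. Genes with few control reads have little room to be lower, so these counts do not bear on direction by themselves. The part of these genes, or of their source, in the ratios of Fga, Fgg, Serpinc1 and Ahsg was not tested.

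Among other coagulation factors 2 of 10 were higher and 0 lower, with F5 at 3 and 68 reads (4.31, 3.12 to 7.05) and Vwf at 8 and 24 (1.69, 0.61 to 3.18). With a prior count of 5 the count of higher genes was 1. The more abundant Proc, the zymogen of protein C, was at -0.55 (-0.66 to -0.44). Of 10 plasma serpins 4 were higher, Serpina1e (2 and 26 reads), Serpina3k (0 and 19), Serping1 (1 and 12) and Serpina1c (4 and 14), and 1 was lower (2 under total-count scaling), Serpind1, the heparin cofactor (583 and 160 reads, -1.63, -1.90 to -1.38). F5 and the 4 serpins counted as higher had at most 4 control reads. They met the 10-read minimum only through the senescent library and could not have been counted as lower. Vwf, with 8 control reads, also met that minimum only through the senescent library. Over all genes 2.71% were higher, and 8.06% of those with 10 to 100 reads. The split between the near-identical Serpina1 copies is uncertain. None of the 7 genes that build the heparan sulfate cofactor of antithrombin passed the threshold, and their median was 0.06. In fibrinolysis, Plaur, the receptor of urokinase, was higher with 2425 and 8004 reads (1.95, 1.89 to 2.02). Plg, plasminogen, had 0 and 18 reads, 7.04-fold higher against the floor of 3 reads. It too met the minimum only through the senescent library.

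**Figure D4:**
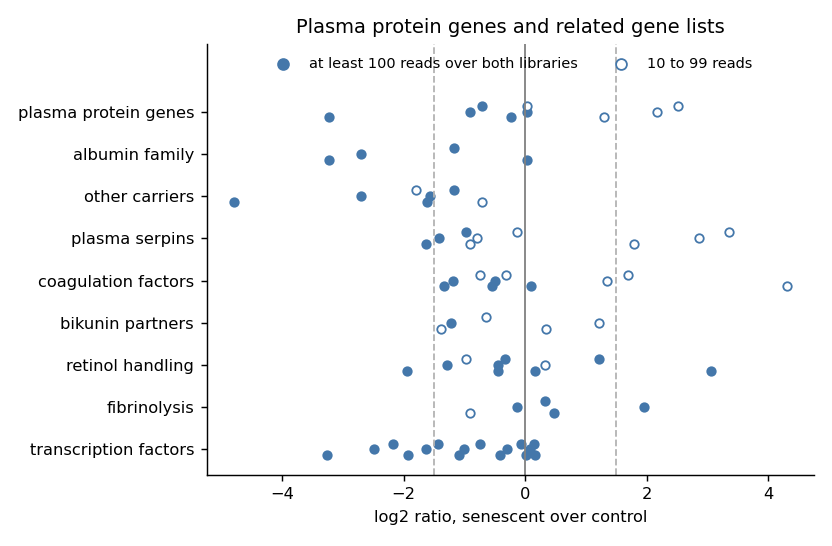
Log2 ratio of senescent over control for the genes of 9 lists, 1 point per gene with at least 10 reads and at least 1 read in each library, so that Plg and Serpina3k are not drawn, with filled points for genes with at least 100 reads, open points for fewer and dashed lines at the threshold of 1.5. The carrier and transcription factor lists lie mostly below 0, with medians of -1.62 and -0.88.

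Among 16 measured transcription factors known to act on plasma protein genes, 5 were lower and 0 higher, with a median of -0.88. Over all genes 5.60% were lower and 2.71% higher. Nr5a2 had 349 control and 30 senescent reads (-3.27, -3.90 to -2.77), Foxa3 799 and 120 (-2.50, -2.80 to -2.23), Onecut1 332 and 62 (-2.18, -2.61 to -1.80) and Foxa1 276 and 61 (-1.93, -2.37 to -1.54). Prox1 was the other one. Hnf4a, by contrast, was at 0.14 (0.10 to 0.19) with 8187 and 7705 reads. Foxa2, the most read of the FOXA genes, had 2032 and 1832 reads (0.08, -0.01 to 0.17). Nr1h4 was at -0.07 (-0.12 to -0.01) and Stat3 at 0.01 (-0.07 to 0.08).

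**Figure D5:**
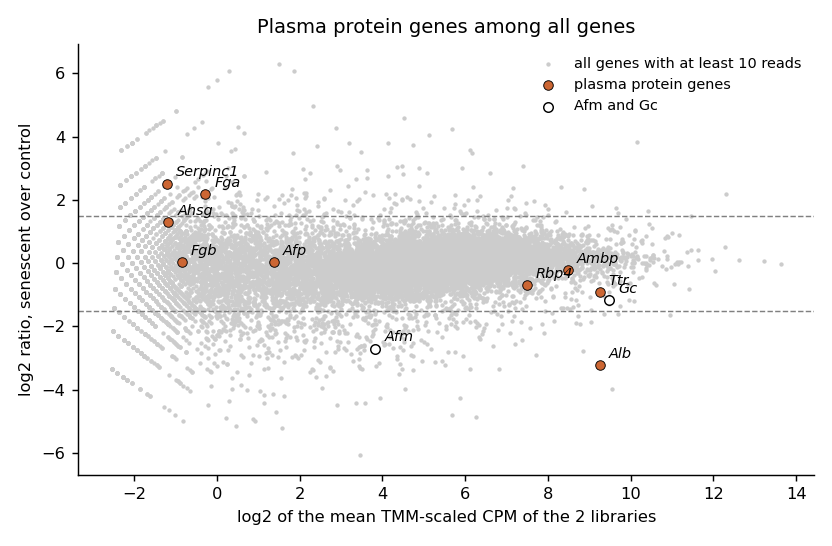
Log2 ratio of senescent over control against the log2 of mean TMM-scaled CPM for genes with at least 10 reads, with the 9 plasma protein genes as orange points, Afm and Gc as open circles, all other genes in grey and the threshold of 1.5 as dashed lines. Alb lies far below the bulk of abundant genes, and Fga and Serpinc1 lie above it where reads are few.

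The cells were checked against markers of liver cell types. Hepatocyte markers were partly present: Krt8, Krt18, Apob and Hnf4a were high in both libraries, whereas Asgr1 (2 and 1 reads), Asgr2 (6 and 3) and Tat (15 and 17) were near 0. Of these markers Apoa1 was lower (2026 and 197 reads, -3.13, -3.35 to -2.92) and Cps1 higher (19 and 55). Bile duct markers were also high, with Krt19 at 22885 and 19177 reads, Spp1 at 25430 and 10580 and Sox9 at 3602 and 4454, while Epcam had 0 and 1. Cftr, a chloride channel of bile duct cells, was the 1 bile duct marker past the threshold, and it was higher (44 and 176 reads, 2.20, 1.75 to 2.74). Fibroblast markers summed to 0.722 and 0.282 CPM, with 5 of 8 at 0 in both libraries and Col1a1 lower at 21 and 1 reads, and endothelial markers to 0.206 and 0.565 CPM. Of the macrophage markers Ptprc (27 and 76 reads) and Csf1r (15 and 40) were higher, Cd14 was at -1.33 (-1.41 to -1.26), and Adgre1 and Clec4f had no read. The part of these markers in the ratios of the plasma protein genes was not tested.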

How the data were processed

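RNAseq was measured in 1 library of control and 1 of senescent AML12 cells. The authors deposited unnormalized counts of reads per Ensembl gene. The submitters' processing notes name CASAVA, STAR, DESeq2, edgeR and mm10 without roles. The counting tool, its annotation and its use of strand are not given in the sources used here. Columns were assigned by the initials of the sample titles. Symbols, positions and exon lengths came from GENCODE M21 on GRCm38: 34490 of 35275 genes (97.8%) matched, and the rest took 0.113% of control and 0.109% of senescent reads. Tf and Klkb1 did not match and were not analysed here, and Trf was added. RefSeq promoters on GRCm38.p6 covered 9 of the 10 genes, all but Ttr. The planned comparison of protein sequences was not run, and some listed genes are not reported here.

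Counts were scaled by TMM in edgeR 4.0.16 (R 4.3.3). Ratios, with a prior count of 1 and Clopper-Pearson intervals of the senescent share of reads (for differences between genes, a normal approximation from the 4 counts, without a prior), were made with pandas 2.3.3, scipy 1.17.1 and numpy 2.4.6 under Python 3.11.15. Plots used matplotlib 3.10.9. The code was tested on simulated data. A gene with no read was set against a floor of 3 reads (0.103 CPM in control and 0.121 CPM in senescent cells). The fold found this way takes the other count as exact and is not a lower limit. DESeq2 1.42.0 size factors, upper-quartile and total-count scaling, other read minimums, prior counts, thresholds and lengths were the alternatives. With 1 library per condition no count test was possible.

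The genes and lists were chosen with earlier results of these data known. The 10 genes are all named. Of each list the rule allowed up to 4 with the largest ratio past the threshold and up to 3 of the others with the most reads, and every gene of the albumin family, the Afp repressors and the fetuin and kininogen cluster. Neighbours with at least 10 reads could be named. Apoa1, Cps1 and the other markers come from the marker lists. The adult liver genes, Trf, Prox1, Hpx, Serpina3k, Rassf6 and the background of 10 to 100 reads were chosen after the data were seen. H19, Igf2 and Foxa2 were also named after the data were seen.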

Additional observations from a re-analysis of the deposited data

How the results depend on the processing

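Alb stayed the only plasma protein gene counted as lower in all 10 alternatives run for that count. The 2 genes counted as higher became 0 with a minimum of 100 reads, which leaves out Fga and Serpinc1 by construction. Total-count scaling moved the median of all genes by -0.11 and gave log2 ratios of -3.34 for Alb, -1.02 for Ttr, -0.81 for Rbp4 and -0.33 for Ambp, and upper-quartile scaling gave -0.95 for Ttr. Afp (-0.08 under total-count scaling) and Fgb (-0.07) changed sign within intervals that hold 0. Of all genes, 390 were higher and 805 lower, and these counts were 141 and 395 with at least 100 reads, 732 and 1435 at a threshold of 1, and 219 and 460 at a threshold of 2. A prior count of 5 gave 259 higher, and an assumed biological variation of 0.4 gave 246. Leaving out mitochondrially encoded genes, the 10 genes took 0.268% of control and 0.100% of senescent reads. With a minimum of 1 read Fgg was also counted as higher, and at a threshold of 1 Ahsg was. Exon length by the longest transcript lowered the levels of the 4 abundant genes (Alb 1343 and 137), with 4 and 3 of the 10 genes still among the 1000 highest in control and senescent cells. Under a prior count of 5 the coagulation factors counted as higher went from 2 to 1, and under total-count scaling the plasma serpins counted as lower went from 1 to 2. No result was reversed. Intervals for the genes under 50 reads span over 2 log2 units, so depth limits these ratios, and no replicate could be left out. No paired analysis was possible because each condition has 1 library.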
